A study of Mus musculus with 64 samples.

Results

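The genes described are the constitutive proteasome subunits of mouse macrophages, followed through stimulation with interferons or with lipopolysaccharide. They were chosen by symbol alone, as genes named Psma, Psmb, Psmc or Psmd followed by a number, without the immunoproteasome subunits Psmb8, Psmb9 and Psmb10. The rule gave 36 of 18820 genes that had a probe set of 1 symbol. Of these, 6 encode the alpha ring of the core particle, 7 its beta ring, 6 the ATPases of the regulatory particle's base, 3 other base subunits and 8 the lid. Another 3 (Psmd5, Psmd9 and Psmd10) encode chaperones that help to assemble the base and are not part of the finished particle. The remaining 3 are Psma8, an alpha subunit of the testis, Psmb11, a beta subunit of the thymus, and Psmc3ip, a partner of meiotic recombination proteins that bears the prefix without being a subunit. Psma4, the other alpha ring gene, lay on a probe set with several symbols and was left out.

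The proteasome degrades proteins tagged with ubiquitin. Its barrel-shaped core is closed by alpha rings and lined by beta rings, in which Psmb5, Psmb6 and Psmb7 carry the proteolytic sites, and the regulatory particle recognises, unfolds and feeds in the substrate. Interferon-gamma is known to induce Psmb8, Psmb9 and Psmb10, which replace those catalytic subunits in newly built particles and favour peptides that bind MHC class I, together with the activator subunits Psme1 and Psme2. The constitutive genes are known to rise together through the transcription factor Nfe2l1 when proteasome activity falls short.

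Macrophages were grown in CSF1 from femoral bone marrow of male mice aged 7 to 8 weeks, and RNA of each culture well was read on 1 Affymetrix array. BALB/c cells received interferon-beta (IFN-beta) or interferon-gamma (IFN-gamma) at 10 U/ml, or lipopolysaccharide (LPS), a bacterial cell wall component, at 5 ng/ml, and cells of C57BL/6 mice were given 0.5, 5 or 50 ng/ml of LPS. Wells were taken at 1, 2, 4, 8 and 24 h, with untreated wells of each strain at 0 h as the reference, which gave 64 arrays in 32 groups of 2 wells. No untreated wells of later times were analysed here, so a change from 0 h includes what changed in culture, and strain cannot be told apart from cell preparation.

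Each level below is log2 of the deposited intensity and each difference is on the log2 scale ± SE with n = 2 arrays per group. A gene was called at a limma p under 0.05 after Benjamini-Hochberg adjustment over all 18820 genes, with no minimum change, and a risen or fallen gene is a called one. The p-values measure the spread between wells, and the number of arrays limits their precision. In RNA of whole wells, fewer cells of a type and less RNA per cell cannot be told apart.

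All 9 macrophage markers measured, Csf1r and Adgre1 among them, averaged above 4.19, the 40th percentile of the log2 values of all probe sets. Their summed intensity ran from 33855 to 47161 over the arrays. Above that level also lay 3 of 4 neutrophil, 3 of 4 stromal, 1 of 3 dendritic and 1 of 3 lymphoid markers. The neutrophil markers summed to 67 to 261 and the stromal ones to 89 to 715. Probe sets without a gene parted the arrays into sets of 53 and 11, which split 9 groups and put both IFN-beta 4 h arrays in the smaller set. After correction for group, 20 members were higher and 4 lower in the smaller set, with differences of up to 0.80 for Psmd6, against 17.8% of all genes higher and 19.7% lower. In 5 groups the replicates lay over 1.5 log2 apart in at least 10 genes after removal of the set difference. The array farther from the adjacent times in most of those genes was taken to stand apart. There was 1 each at IFN-gamma 2 h, IFN-gamma 4 h, C57BL/6 LPS 50 ng/ml 1 h, LPS 5 ng/ml 24 h and LPS 0.5 ng/ml 1 h. Those at IFN-gamma 2 h and LPS 0.5 ng/ml 1 h belonged to the smaller set. The C57BL/6 0 h arrays already held LPS-induced transcripts (6 genes summing to 10429 to 11627, against 275 to 333 in the BALB/c 0 h arrays), so C57BL/6 courses were read mainly from 2 h of the same dose.

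Levels of different probe sets are given only as a description, since brightness also depends on the probes. Psma8 (3.46) and Psmb11 (4.45) were dim on average over the 64 arrays, and Psmc3ip averaged 6.13. The other 33 members averaged between 7.27 (Psmd9) and 12.2 (Psmb3), which placed them between the 62.9th and 99.3rd percentile of genes. Over the 32 groups, the difference between the highest and lowest group mean was 1.93 for Psmc3ip, 1.74 for Psmd10, 1.58 for Psma5 and 1.40 for Psmd5, and as little as 0.29 for Psmd13. The median SD within a group lay between 0.03 and 0.14 for all members.

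Promoters of 5 members that the results turn on are given here, because these members rose at 24 h of LPS in all 4 LPS courses. Psmd10 had the largest rise, Psma5 also rose under both interferons, Psmb5 and Psmb6 are catalytic, and Psmc5 is an ATPase of the base. Each window holds the 250 bases before and the 50 after the annotated start, 5′ to 3′ on the gene's strand, from RefSeq on GRCm38.p6. The positions are chrX:140956662-140956961 on the minus strand for Psmd10, chr3:108256676-108256975 on the plus strand for Psma5, chr14:54617946-54618245 on the minus strand for Psmb5, chr11:70525107-70525406 on the plus strand for Psmb6 and chr11:106255935-106256234 on the plus strand for Psmc5. Capitals mark matches, on either strand, to 3 motifs: TGACNNNGC (the core of the antioxidant response element read by the Nfe2l1 and Nfe2l2 family), CCAAT (the box read by NF-Y) and GCTTTCGC, for which no factor is named here.
Psmd10: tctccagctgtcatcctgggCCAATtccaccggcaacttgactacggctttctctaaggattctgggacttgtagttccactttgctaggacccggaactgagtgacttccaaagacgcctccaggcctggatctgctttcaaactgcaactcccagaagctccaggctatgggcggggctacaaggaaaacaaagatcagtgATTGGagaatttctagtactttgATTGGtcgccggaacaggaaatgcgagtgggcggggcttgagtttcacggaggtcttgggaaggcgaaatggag
Psma5: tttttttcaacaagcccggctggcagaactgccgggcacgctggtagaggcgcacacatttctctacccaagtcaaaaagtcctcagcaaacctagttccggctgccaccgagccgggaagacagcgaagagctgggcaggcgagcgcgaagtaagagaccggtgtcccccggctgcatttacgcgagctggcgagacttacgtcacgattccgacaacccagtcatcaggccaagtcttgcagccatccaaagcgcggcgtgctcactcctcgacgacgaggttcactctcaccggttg
Psmb5: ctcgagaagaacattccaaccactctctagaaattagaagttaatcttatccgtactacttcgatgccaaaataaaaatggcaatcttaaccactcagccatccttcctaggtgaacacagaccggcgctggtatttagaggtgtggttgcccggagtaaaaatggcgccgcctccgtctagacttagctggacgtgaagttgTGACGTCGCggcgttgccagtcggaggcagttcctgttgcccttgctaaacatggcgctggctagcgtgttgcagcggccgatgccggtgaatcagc
Psmb6: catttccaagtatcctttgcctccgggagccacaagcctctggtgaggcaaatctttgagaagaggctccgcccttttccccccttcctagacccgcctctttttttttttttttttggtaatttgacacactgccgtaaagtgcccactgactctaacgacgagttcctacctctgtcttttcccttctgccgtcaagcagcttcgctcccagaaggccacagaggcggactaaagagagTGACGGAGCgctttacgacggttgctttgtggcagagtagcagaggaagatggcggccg
Psmc5: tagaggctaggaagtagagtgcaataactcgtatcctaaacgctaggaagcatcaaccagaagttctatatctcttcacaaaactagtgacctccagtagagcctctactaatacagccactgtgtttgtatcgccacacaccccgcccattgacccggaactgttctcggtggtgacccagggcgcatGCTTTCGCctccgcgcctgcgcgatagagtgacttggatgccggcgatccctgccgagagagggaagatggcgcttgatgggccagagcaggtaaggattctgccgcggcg
Psmd10 held 3 CCAAT matches, Psmb5 and Psmb6 held 1 TGACNNNGC match each, Psmc5 held 1 GCTTTCGC match, and Psma5 held none of the 3 motifs. Promoters were matched for 29 of the 36 members, 31 windows in all. TGACNNNGC occurred in 5 of these 31 windows (16.1%), against 12.4% of 32851 windows of all genes. CCAAT occurred in 13 (41.9%), against 37.4%. GCTTTCGC occurred in 2 (6.45%), those of Psma1 and Psmc5, against 0.432%. No match overlaps another in the 5 windows shown, and a match is a description of the letters and not of a bound site.

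LPS at 5 ng/ml in BALB/c cells was followed by a late, broad rise of the constitutive subunits. At 24 h against 0 h, 21 of 36 members had risen (58.3% of them), where 15.3% of all genes had, and 2 had fallen, where 17.4% of all genes had. The members' median difference was 0.37, against a median of -0.03 over all genes, and 31 members had a positive difference. LPS 24 h replicate 2 lay in the smaller set, so the larger set alone left 1 array at 24 h, with a member median of 0.25. With the array set as a covariate the count was 22 risen and 2 fallen with a median of 0.25 (17.1% and 19.2% of all genes). The total of 23 called fell to 15 without 0 h replicate 2 and to 14 without 24 h replicate 2, and 11 of the 21 risen and both fallen members held without any 1 of the 4 arrays. Psmb1, Psmc1, Psmc6, Psmd2, Psmd4, Psmd12 and 4 alpha ring genes did not. Summed intensity of 4 stromal genes also moved, at 419 to 509 in the 24 h arrays against 137 to 151 at 0 h, with Dcn (4.12) and Pdgfrb (1.60) called and Col1a1 (-0.27) and Col1a2 (-0.12) not, and its part in these results was not tested. Macrophage markers summed to 42408 to 46046 at 24 h against 36568 to 36958 at 0 h.

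**Figure D1:**
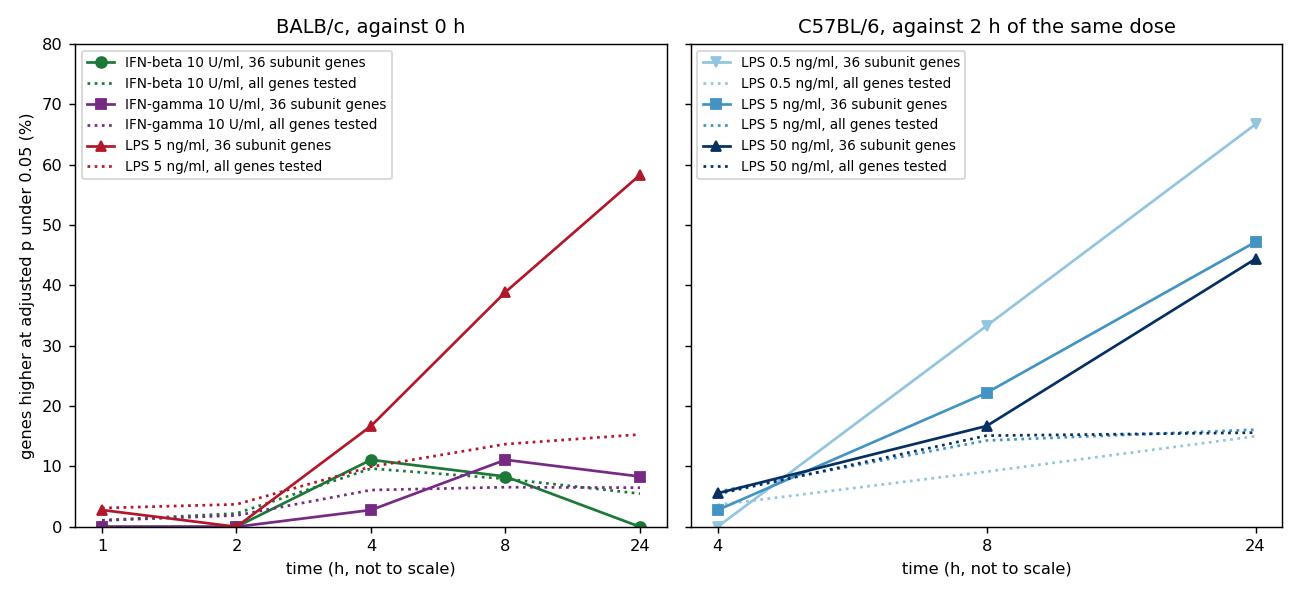
Share of genes called higher (percent, vertical axis) at each time (h, horizontal axis) in the BALB/c courses against 0 h and the C57BL/6 LPS courses against 2 h, for the 36 members and for all genes tested. At 24 h of LPS the members lie well above all genes in every course (58.3% against 15.3% in BALB/c cells), and at 24 h of IFN-beta no member was called higher.

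At 1 and 2 h of this course few members had changed. At 1 h, 1 member had risen (Psmd10) and 0 had fallen, against 3.11% higher and 1.91% lower of all genes. At 2 h, 0 had risen and 1 (Psmd9) had fallen, against 3.72% and 3.51%, with 1 member higher and 2 lower at an unadjusted limma p under 0.05, and with the array set as a covariate 1 had risen and 1 had fallen (4.59% and 6.52% of all genes). At 4 h, 6 had risen and 2 had fallen, against 9.95% and 14.5% of all genes, and 11 and 3 with the covariate (11.9% and 18.4%). At 8 h, 14 had risen and 2 had fallen, against 13.7% and 21.1%, with a member median of 0.22.

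Among the base chaperones, Psmd10 gave the largest rise of any member. Its level was 10.93 and 11.04 at 24 h of LPS, against 9.37 and 9.37 at 0 h. Both 24 h arrays lay far above both 0 h arrays, a difference of 1.61 ± 0.11, or 3.06-fold (adjusted p = 4.5e-15). Arrays of Psmd10 between those times read 9.77 and 9.81 at 1 h, 9.71 and 9.66 at 2 h, 10.18 and 10.21 at 4 h, and 10.85 and 10.84 at 8 h. The groups did not overlap 0 h at any time. Psmd5 read 9.71 and 10.34 at 24 h, against 8.93 and 8.62 at 0 h, with the groups apart but the 24 h wells spread, for a difference of 1.25 ± 0.20 (adjusted p = 3.3e-06). Psmd9, the remaining chaperone, fell, at 7.06 and 6.99 at 24 h against 7.43 and 7.68 at 0 h (-0.53 ± 0.11, adjusted p = 0.00011).

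Of the alpha ring, all 6 measured genes had risen at 24 h, with a median of 0.63. Psma5 read 10.04 and 10.11 at 24 h, against 8.84 and 9.04 at 0 h, and its 8 h arrays were as high at 10.20 and 10.14. The arrays of 8 and 24 h lay above those of 0 h without overlap, with differences of 1.23 ± 0.17 at 8 h (adjusted p = 6.1e-08) and 1.14 ± 0.17 at 24 h (adjusted p = 3.6e-07). The other 5 rose by between 0.36 (Psma7) and 0.82 (Psma6). Psma2 and Psma6 are among the members that were higher in the smaller set of arrays, which held 24 h replicate 2, and the Psma6 difference was 0.52 and that of Psma2 0.36 with the set as a covariate. On the larger set alone, which left 1 array at 24 h, the Psma1 and Psma2 differences were 0.19 and 0.27. The calls of Psma1, Psma2, Psma6 and Psma7 were each lost when 1 array was left out, with adjusted p of up to 0.34, 0.559, 0.258 and 0.157, and those of Psma3 and Psma5 held.

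In the beta ring, 4 of 7 had risen at 24 h and none had fallen, with a median of 0.33. Psmb5, the chymotrypsin-like subunit, read 12.53 and 12.51 at 24 h, against 11.91 and 11.95 at 0 h, so that the 24 h arrays lay above (0.59 ± 0.09, adjusted p = 1.9e-06). Its 8 h arrays, 12.09 and 11.95, lay at or just above the 0 h arrays, and the difference there was 0.09 (adjusted p = 0.54). Psmb6, the caspase-like subunit, was high by 8 h. It read 11.99 and 11.98 at 8 h and 11.76 and 11.63 at 24 h, against 11.24 and 11.22 at 0 h, with no overlap. The differences were 0.75 ± 0.11 at 8 h (adjusted p = 1.6e-07) and 0.46 ± 0.11 at 24 h (adjusted p = 0.00052). Psmb7, the trypsin-like subunit, read 10.69 and 10.60 at 24 h, against 10.29 and 10.33 at 0 h, a smaller step of 0.34 ± 0.09 that also kept the groups apart (adjusted p = 0.0016). Psmb1 was the other riser (0.33, adjusted p = 0.041), not called with the set as a covariate (0.21, adjusted p = 0.0782), with the mean of its probe sets or with only the arrays compared, and Psmb2 (0.20), Psmb3 (0.06) and Psmb4 (0.33) did not pass.

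The base ATPases that unfold substrates had 4 of 6 risen at 24 h, with a median of 0.53. Psmc2 read 9.21 and 9.28 at 24 h, against 8.53 and 8.54 at 0 h (0.71 ± 0.11, adjusted p = 2.6e-06), and the wells of each time lay close together. Psmc5 read 8.34 and 8.38 at 24 h and 8.35 and 8.40 at 8 h, against 7.75 and 7.76 at 0 h. Its rise was therefore of the same size at both times (0.62 and 0.61). Psmc6 (0.77) and Psmc1 (0.26) had risen too, while Psmc3 (-0.11) and Psmc4 (0.45) did not pass. Of the other base subunits, the scaffold Psmd2 (0.32) and the ubiquitin receptor Psmd4 (0.36) had risen, and the scaffold Psmd1 (0.21) did not pass.

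Of the 8 lid subunits, 3 had risen at 24 h. Psmd11 read 10.25 and 10.53 at 24 h, against 9.60 and 9.53 at 0 h (0.82 ± 0.11, adjusted p = 5.3e-08). Psmd7, the partner of the deubiquitinase, read 10.55 and 10.45 at 24 h, against 9.99 and 9.75 at 0 h (0.63 ± 0.10, adjusted p = 4.9e-06). Neither gene's groups overlapped. Psmd12 was the third of them (0.39), and the deubiquitinase Psmd14 (0.37) and Psmd3, Psmd6, Psmd8 and Psmd13 (0.08 to 0.47) did not pass.

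Psmc3ip went the other way. It read 4.98 and 4.84 at 24 h, against 6.61 and 6.74 at 0 h, the largest fall of any member (-1.77 ± 0.19, 3.40-fold lower, adjusted p = 4.7e-10). Psma8 (-0.12) and Psmb11 (-0.14) stayed dim and did not pass.

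**Figure D2:**
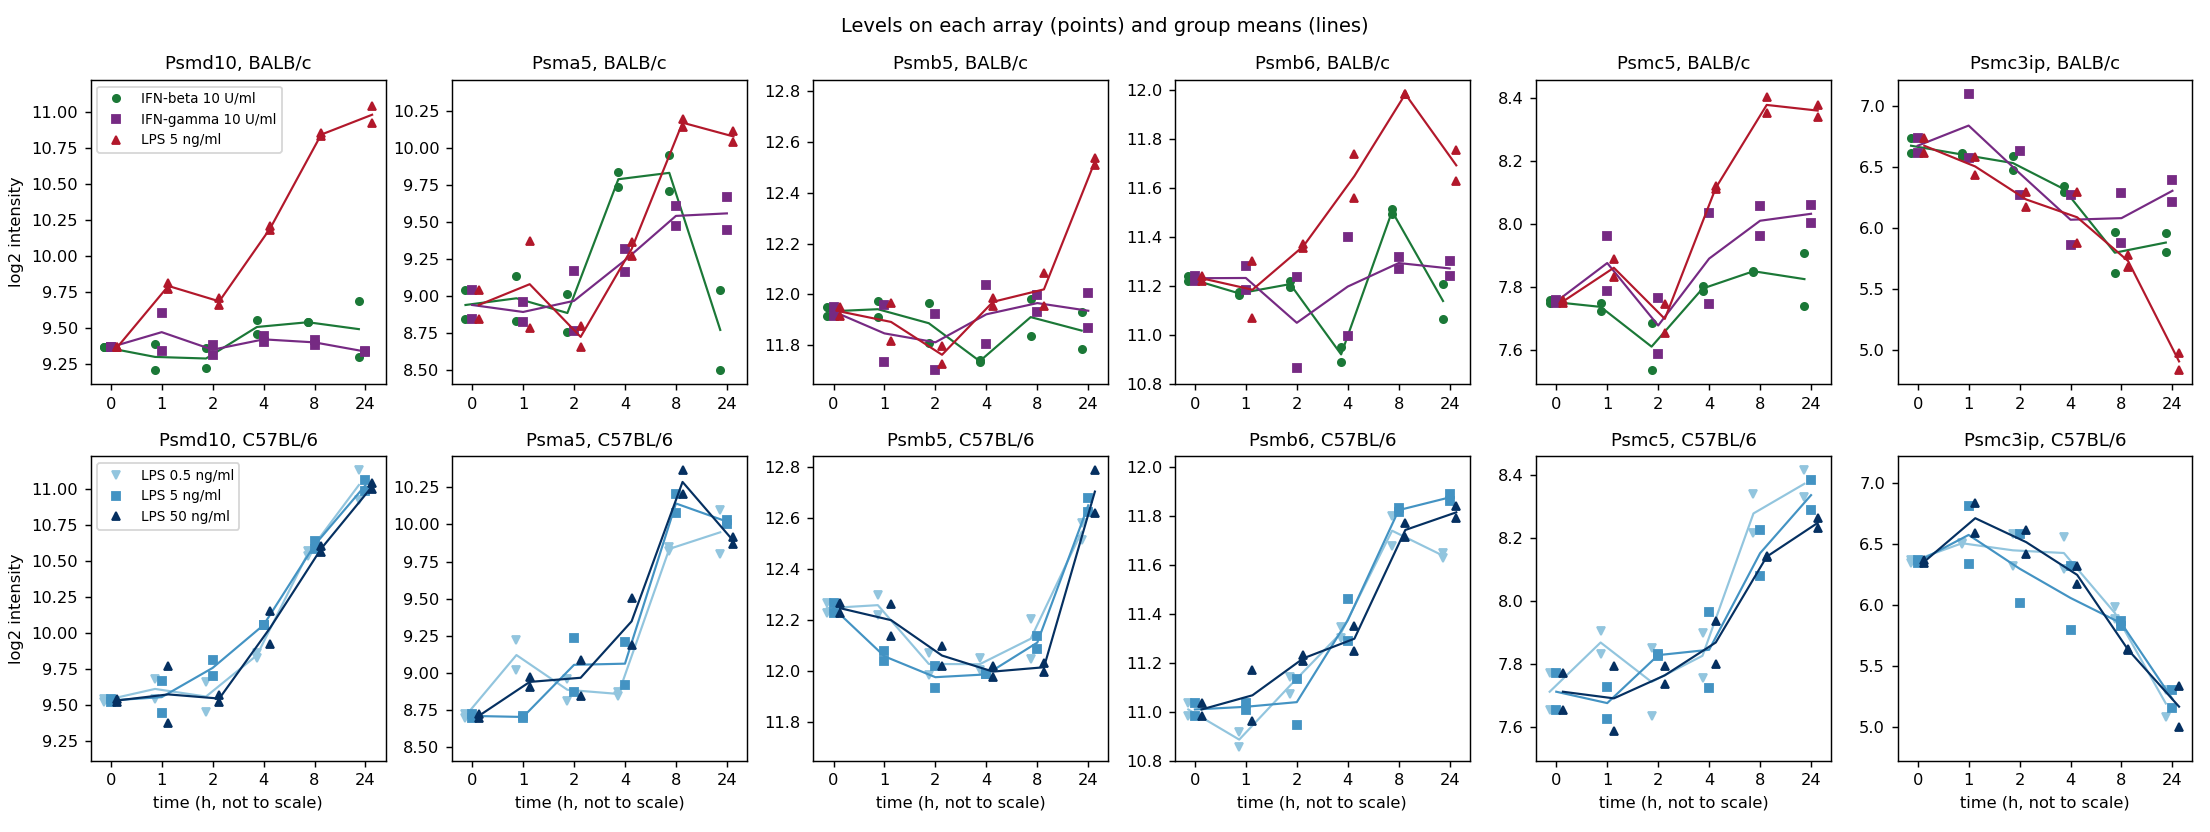
Log2 intensity (vertical axis) of 6 members in every array against time (h, horizontal axis), BALB/c arrays in the top row and C57BL/6 arrays in the bottom row, 1 point per array with lines through the group means. Psmd10 separates LPS from both interferons in BALB/c cells (10.93 and 11.04 at 24 h of LPS, against 9.37 and 9.37 at 0 h), and Psmc3ip falls under LPS in both strains.

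In C57BL/6 cells more members had risen than fallen at 24 h of every dose. At 24 h against 2 h, 24 members had risen and 1 had fallen at 0.5 ng/ml, against 15% and 14.5% of all genes. At 5 ng/ml 17 had risen and 2 had fallen, against 16.1% and 15.3%, and at 50 ng/ml 16 had risen and 3 had fallen, against 15.6% and 16.5%. At 0.5 ng/ml, 24 h replicate 2 lay in the smaller set of arrays, as did 2 h replicate 2 at 5 ng/ml. The member medians were 0.42, 0.25 and 0.27 from the low to the high dose, and 0.32, 0.34 and 0.27 with the array set as a covariate. With that covariate, 23, 24 and 21 had risen in the same order of doses (16.8%, 18.4% and 18.1% of all genes), and 1, 2 and 3 had fallen (16.1%, 17.7% and 19%). The 25 called at 0.5 ng/ml fell to 14 without 24 h replicate 2, and the 19 called at 5 ng/ml became 16 without the 5 arrays that stood apart. The 4 stromal genes summed to 141 to 177 at 24 h against 102 to 112 at 2 h of 0.5 ng/ml, to 276 to 283 against 92 to 105 at 5 ng/ml, and to 272 to 278 against 102 in both 2 h arrays at 50 ng/ml. Neutrophil markers summed to less at 24 h than at 2 h, at 98 to 99 against 158 to 166, 79 to 99 against 154 to 218 and 94 to 96 against 190 to 212 from the low to the high dose. Macrophage markers summed to more, at 42961 to 46135 against 37337 to 37344, 39599 to 45718 against 38760 to 39273 and 46735 to 47161 against 37259 to 38451. The part of these markers in the result was not tested. From 0 h, 26, 22 and 17 members had risen and 1 had fallen at each dose, where 13.8%, 13.9% and 13.8% of all genes were higher and 13%, 14.2% and 15.1% lower.

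Psmd10 read 10.92 and 11.13, 11.06 and 10.99, and 11.04 and 11.00 at 24 h of 0.5, 5 and 50 ng/ml, against 9.45 and 9.66, 9.70 and 9.81, and 9.52 and 9.56 at 2 h of the same doses. All 6 late arrays stood above all 6 early ones, with differences of 1.47, 1.27 and 1.47. Psmb5 read 12.58 and 12.51, 12.68 and 12.62, and 12.79 and 12.62 at 24 h, against 12.07 and 11.99, 11.93 and 12.02, and 12.02 and 12.10 at 2 h. Again no array overlapped, and the differences were 0.52 (adjusted p = 2.1e-05), 0.67 (adjusted p = 1.5e-07) and 0.64 (adjusted p = 3.5e-07).

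At 8 h against 2 h the counts in C57BL/6 cells were lower than at 24 h and changed with the model fitted. At 0.5 ng/ml 12 members had risen and 1 had fallen, against 9.14% and 12.4% of all genes, at 5 ng/ml 8 and 1, against 14.3% and 18.8%, and at 50 ng/ml 6 and 1, against 15.1% and 20%. With the set as a covariate 20, 18 and 15 had risen (11.6%, 16.4% and 17.5% of all genes) and 1, 0 and 1 had fallen (15.7%, 21.2% and 22.9%). The 2 h and 8 h arrays of 0.5 and 50 ng/ml all lay in the larger set. The member medians at these doses were the same with and without the covariate (0.29 and 0.12). At 5 ng/ml, where 2 h replicate 2 lay in the smaller set, the median was 0.17 without it and 0.25 with it. Without 2 h replicate 2 or without 8 h replicate 1, the 13 called at 0.5 ng/ml became 8.

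The 4 LPS courses have no array in common and could be set side by side at 24 h. In all 4, 14 members had risen, 12 had risen in 1 to 3 courses and 10 in none, and 26 had a positive difference throughout. Matching shares over all genes are not given here. The share risen in all 4 cannot exceed the 15% of all genes risen at 0.5 ng/ml. With the set as a covariate 18 had risen in all 4, where no more than 16.8% of all genes can have. The 14 were Psmd10 (1.27 to 1.61), Psma5 (0.92 to 1.14), Psmd5 (0.72 to 1.25), Psmc2 (0.55 to 0.71), Psmb5 (0.52 to 0.67), Psmc5 (0.48 to 0.63), Psmb6 (0.46 to 0.84), Psmd7 (0.46 to 0.77), Psmd11 (0.40 to 0.82), Psma7 (0.36 to 0.88), Psmb7 (0.32 to 0.49), Psma1 (0.31 to 0.50), Psmc1 (0.26 to 0.35) and Psmd2 (0.22 to 0.32). They draw on the alpha ring, the beta ring with all 3 catalytic subunits, the ATPases, the other base subunits, the lid and the chaperones. In 7 of them (Psma5, Psmb5, Psmb6, Psmc2, Psmc5, Psmd7 and Psmd10) the call held in every course without any 1 of its arrays. Psmc3ip had fallen in all 4 (-1.77 to -1.07). Psmd9 had fallen in BALB/c cells and at 50 ng/ml (-0.53 and -0.27), and Psmd8 at 5 and 50 ng/ml (-0.28 and -0.25).

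**Figure D3:**
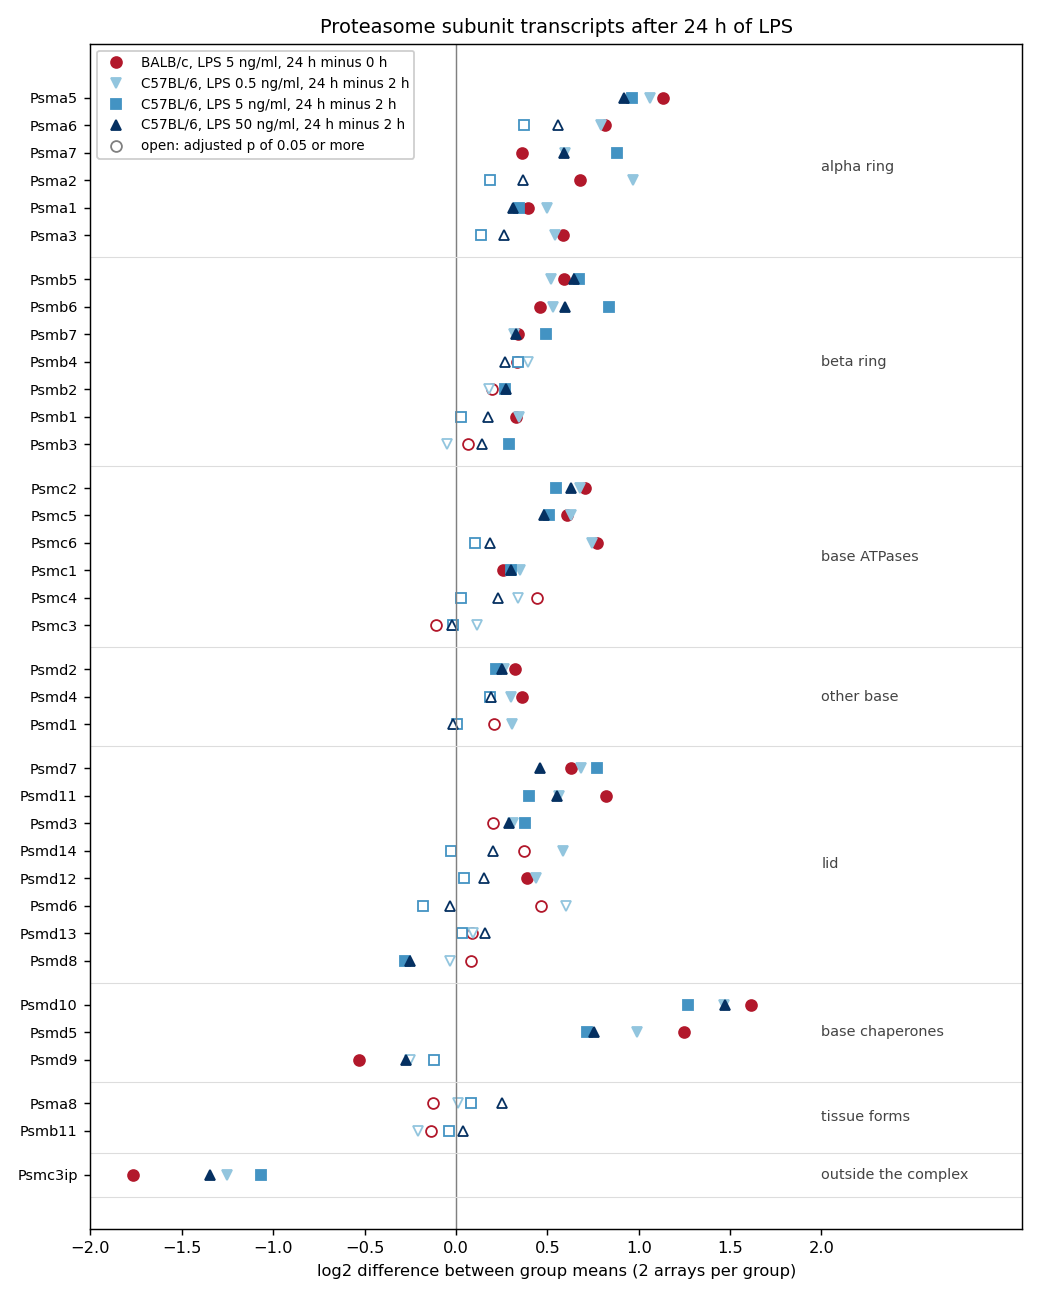
Log2 difference at 24 h of LPS (horizontal axis) for each of the 36 members (rows, by subcomplex) in the BALB/c course against 0 h and the C57BL/6 courses against 2 h, with filled points for called differences. Psmd10 lies farthest to the right in all 4 courses (1.27 to 1.61) and Psmc3ip farthest to the left (-1.77 to -1.07).

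Between LPS doses no member was called at 24 h. By limma 0 of 36 differed between 50 and 0.5 ng/ml, where 1.85% of all genes were higher and 4.31% lower, with 5 members lower at an unadjusted p under 0.05 and 1 called with limma's trend and robust settings. Between 5 and 0.5 ng/ml at 24 h, 0 were called, against 0.632% and 1.31%, with 2 higher and 1 lower at an unadjusted p under 0.05 and 0 called with the trend and robust settings. At 8 h, 2 members were lower at 50 than at 0.5 ng/ml, the ATPase Psmc1 (-0.33, adjusted p = 0.0088) and the chaperone Psmd5 (-0.60, adjusted p = 0.034), against 10.3% of all genes lower and 7.16% higher. With the array set as a covariate the 8 h count was 5 lower and 2 higher, against 14.6% and 9.51%. These tests do not show that the doses acted alike.

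Under IFN-beta the shares of members risen were close to those of all genes at 4 and 8 h. They were 11.1% against 9.65% at 4 h and 8.33% against 7.95% at 8 h. At 1 and 2 h, 0 were called by limma, against 1.08% and 2.21% of all genes higher and 0.0903% and 1.09% lower, with 1 and 0 members at an unadjusted p under 0.05 and 0 called with the trend and robust settings. At 4 h, where both arrays lay in the smaller set, 4 had risen and 4 had fallen, against 9.65% and 15.1%, and 2 and 2 with the set as a covariate (8.21% and 11.4%). At 8 h, 3 had risen and 2 had fallen, against 7.95% and 11.1%, and 6 and 2 with the covariate (10.2% and 14.6%). The 5 called at 8 h became 2 without 0 h replicate 1 or 8 h replicate 1. Psma5 read 9.95 and 9.71 at 8 h of IFN-beta, against 8.84 and 9.04 at 0 h, apart from each other (0.89 ± 0.17, adjusted p = 6e-05). By 24 h it read 8.50 and 9.05, which spans the 0 h arrays. The other changes at 8 h were Psma3 (0.42), Psmd8 (0.26), Psmd1 (-0.36) and Psmc3ip (-0.88). Psmb5 (-0.02, adjusted p = 0.94), Psmb6 (0.27, adjusted p = 0.067) and Psmb7 (0.13, adjusted p = 0.37) did not pass.

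At 24 h of IFN-beta, 0 members had risen and 1 had fallen, against 5.49% and 5.97% of all genes. The fallen member was Psmc3ip (-0.79, adjusted p = 0.0033), and 4 members, all lower, had an unadjusted limma p under 0.05. IFN-beta 24 h replicate 2 lay in the smaller set, so the larger set alone left 1 array at that time, with a member median of -0.15. With the set as a covariate 0 had risen and 4 had fallen (7.51% and 7.87% of all genes). The count became 2 without 0 h replicate 1, and 0 without 0 h replicate 2 or 24 h replicate 2.

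Under IFN-gamma few members were called, most of the risen ones genes of the alpha ring. No member was called at 1 or 2 h (0 of 36 by limma, against 1.05% and 1.88% of all genes higher and 0.165% and 0.871% lower), with 0 and 1 members at an unadjusted p under 0.05 and 0 called with the trend and robust settings. With the array set as a covariate 0 had risen and 2 had fallen at 2 h (2.23% and 1.03% of all genes). At 4 h, 1 had risen and 1 had fallen, against 6.09% and 6.84%, and 1 and 2 with the covariate (7.14% and 7.6%). At 8 h, 4 had risen (11.1%) and 2 had fallen, against 6.56% and 8.48%, and at 24 h 3 (8.33%) and 1, against 6.48% and 8.4%. With the covariate, 6 had risen and 2 had fallen at 8 h (8.53% and 11.7% of all genes), and 7 and 1 at 24 h (8.55% and 11.8%). The 6 called at 8 h became 3 without 0 h replicate 1 or 8 h replicate 2, and the 4 called at 24 h became 1 or 2 without any 1 of their 4 arrays.

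Psma5 read 9.67 and 9.45 at 24 h of IFN-gamma, against 8.84 and 9.04 at 0 h (0.62 ± 0.17, adjusted p = 0.0065). Psma7 read 9.97 and 10.06, against 9.51 and 9.48 (0.52 ± 0.13, adjusted p = 0.0034). In both genes the treated arrays lay above the untreated ones. Psmd7 of the lid had also risen (0.36, adjusted p = 0.012) and Psmd1 had fallen (-0.33, adjusted p = 0.019). Each of these 4 calls, those of Psma5 and Psma7 included, was lost without at least 1 of the arrays compared. Of the 7 beta ring genes and the 6 ATPases, 0 were called at 24 h. The catalytic subunits stood at 0.00 for Psmb5 (adjusted p = 0.99), 0.04 for Psmb6 (adjusted p = 0.88) and 0.11 for Psmb7 (adjusted p = 0.49).

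The immunoproteasome genes rose under all 3 stimuli. At 24 h of IFN-gamma the differences were 1.97 for Psmb10, 1.51 for Psmb9 and 1.47 for Psmb8, with 1.10 and 1.03 for the activator subunits Psme1 and Psme2. At 8 h of IFN-beta they were 2.23, 1.30 and 1.26, with 0.89 and 0.71, and at 24 h of LPS in BALB/c cells 1.63, 1.06 and 1.29, with 1.10 and 1.22, in the same order of genes. By 24 h of IFN-beta the 5 differences were smaller, at 0.40 to 0.65, with 4 called, against 5.49% of all genes higher. Of these 4, Psme1 held without any 1 of the arrays compared. The calls of Psmb8, Psmb9 and Psmb10 were each lost without at least 1 array. Beside them, the constitutive counterparts Psmb7, Psmb6 and Psmb5 were called at 24 h of LPS and not at 24 h of IFN-gamma or 8 h of IFN-beta. At 8 h of LPS Psmb6 and Psmb7 were called and Psmb5 was not, and the Psmb7 call was lost without at least 1 array. The comparisons with 0 h share the BALB/c 0 h arrays, so the stimuli were set against each other directly.

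**Figure D4:**
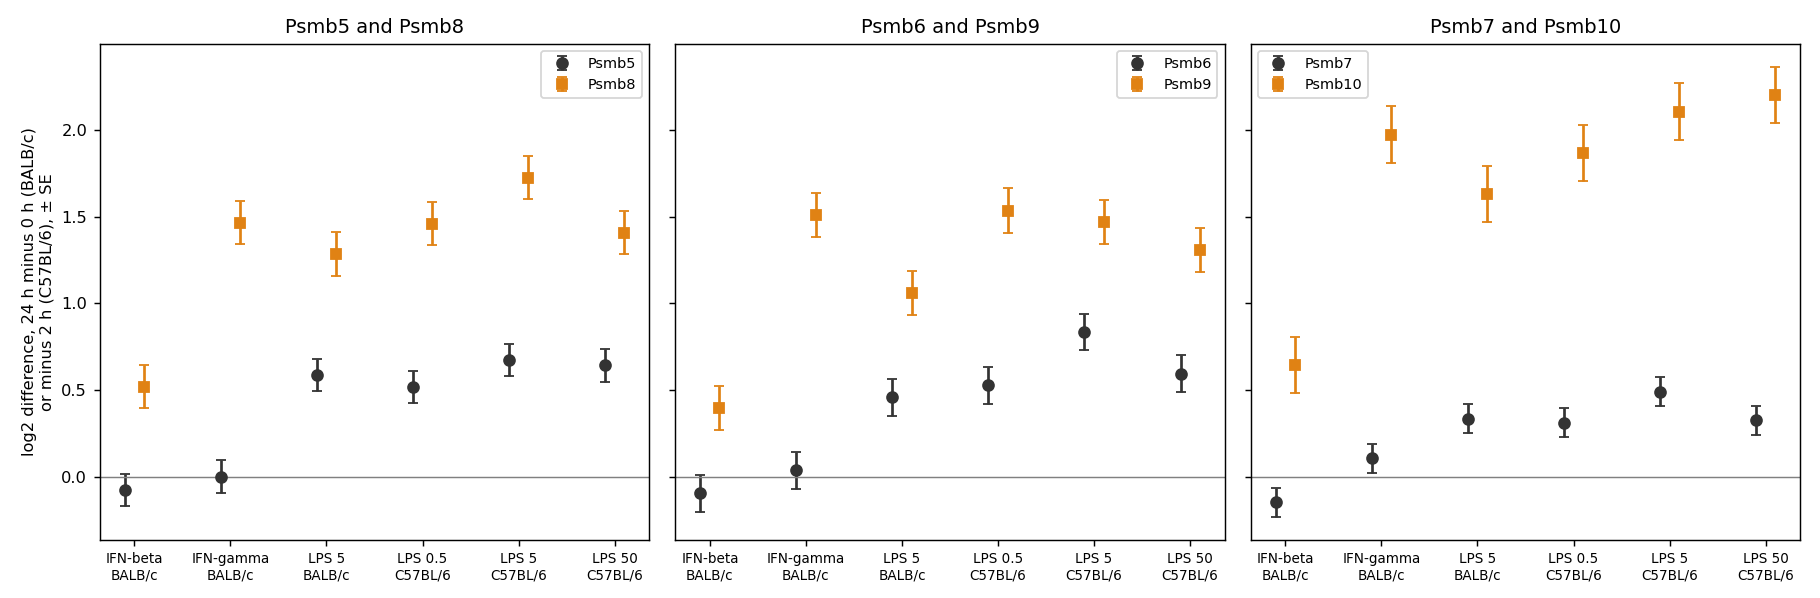
Log2 difference at 24 h ± SE (vertical axis) of each constitutive catalytic subunit and the immunoproteasome subunit that replaces it (Psmb5 and Psmb8, Psmb6 and Psmb9, Psmb7 and Psmb10) in 6 courses, BALB/c against 0 h and C57BL/6 against 2 h. Under IFN-gamma Psmb8, Psmb9 and Psmb10 lie between 1.47 and 1.97 while Psmb5, Psmb6 and Psmb7 lie between 0.00 and 0.11, and under LPS both sets are above 0.

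Set against LPS at 24 h, IFN-gamma cells had 15 members lower and 2 higher, with a median of -0.25, against 14.1% of all genes lower and 14.2% higher. LPS 24 h replicate 2 lay in the smaller set of arrays and both IFN-gamma arrays in the larger. The median was -0.17 with the set as a covariate and -0.14 on the larger set alone, which left 1 LPS array. Psmd10 read 9.34 and 9.33 under IFN-gamma, against 10.93 and 11.04 under LPS, clear of each other (-1.65, adjusted p = 3.7e-15). Psmb5 read 12.00 and 11.87, against 12.53 and 12.51, also clear (-0.59, adjusted p = 2.9e-06). Psmb6 (-0.42, adjusted p = 0.0018) and Psmb7 (-0.23, adjusted p = 0.04) were lower as well, as were Psmd5 (-1.18), Psma6 (-0.91), Psmc6 (-0.68) and Psmd11 (-0.66), and Psma5 (-0.52). The 2 higher members were Psmc3ip (1.40) and Psmd9 (0.39). Psma6 and Psmc6 were among the members higher in the smaller set of arrays (0.60 and 0.53). The calls of Psma5, Psma6, Psmb7, Psmc6 and Psmd9 were each lost without at least 1 of the arrays compared. In the same comparison Psmb9 was higher under IFN-gamma (0.45, adjusted p = 0.0056), a call also lost without at least 1 of the arrays compared. Psmb8 (0.18), Psmb10 (0.34), Psme1 (0.00) and Psme2 (-0.19) did not pass. The 17 called became 10 without IFN-gamma 24 h replicate 2 and 11 without LPS 24 h replicate 2.

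IFN-beta cells at 24 h had 19 members lower and 1 higher than LPS cells, with a median of -0.44, against 12.8% and 14.3% of all genes. The lower members were led by Psmd10 (-1.49, adjusted p = 5.6e-14), Psma5 (-1.30, adjusted p = 2.5e-08), Psmd5 (-1.06) and Psmd11 (-0.83). The catalytic subunits were all lower, Psmb5 (-0.66), Psmb6 (-0.55) and Psmb7 (-0.48), and Psmc3ip was higher (0.97). Against IFN-gamma at 24 h, IFN-beta cells had 5 members lower and 1 higher, against 4.87% and 5.61% of all genes, namely Psma5 (-0.79), Psma7 (-0.78), Psmd3 (-0.35), Psmd7 (-0.33) and Psmb7 (-0.25), and Psmd8 (0.21). With the set as a covariate 14 were lower and 1 higher (6.56% and 8.32% of all genes), and the 6 called became 2 without IFN-beta 24 h replicate 1 and 3 without either IFN-gamma 24 h array.

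At 0 h, 3 members differed between the strains. Psmd9 (0.40) and Psmc1 (0.31) were higher and Psmb5 (-0.31, adjusted p = 0.023) lower in BALB/c than in C57BL/6 cells, against 5.49% of all genes higher and 4.09% lower, with the C57BL/6 arrays carrying LPS-induced transcripts at that time. With the array set as a covariate 6 were higher and 1 lower (8.51% and 5.95%). At 24 h of LPS 5 ng/ml, Psmd8 was higher (0.22) and Psma8 lower (-0.57) in BALB/c cells, against 5.3% and 4.25%, and the covariate gave 1 higher and 4 lower (7.17% and 5.41%). The change under LPS from 2 to 8 h differed between the strains in 1 member, Psma3, which was higher in BALB/c cells, against 2.65% of all genes higher and 2.87% lower, and from 2 to 24 h in Psmd8 (higher) and Psmb6 (lower), against 2.83% and 2.98%.

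Other genes of the pathway, 29 of 40 listed being measured, moved in both directions at 24 h of LPS in BALB/c cells, with 12 risen and 5 fallen, against 15.3% and 17.4% of all genes, and with the 5 immunoproteasome and PA28 activator genes among the risen. Nfe2l1, the transcription factor of proteasome genes, read 11.42 and 11.31 at 24 h, against 10.33 and 10.37 at 0 h, with both treated arrays above (1.02 ± 0.08, adjusted p = 4.1e-13). The core's nuclear activator Psme4 (1.16), the proteasome adaptor Ecpas (0.71) and the core assembly factor Pomp (0.59) had risen, and the core assembly chaperone Psmg2 (-0.53), the deubiquitinase Uchl5 (-0.53), the shuttle Ubqln2 (-0.46) and Akirin2, which carries proteasomes into the nucleus (-0.29), had fallen. In C57BL/6 cells at 24 h against 2 h, Nfe2l1 rose by 0.65, 0.93 and 0.72, Psme4 by 1.11, 0.84 and 0.86 and Pomp by 0.69, 0.74 and 0.96 at 0.5, 5 and 50 ng/ml. Uchl5 was -0.48, -1.01 and -0.82, called at each dose.

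Under IFN-gamma at 24 h, 7 of the 29 had risen and 3 had fallen, against 6.48% and 8.4% of all genes. Pomp read 10.45 and 10.49, against 9.71 and 9.40 at 0 h (0.91 ± 0.11, adjusted p = 4e-08), and its arrays did not overlap. Psme4 had risen (0.66), Psmg2 (-0.65), Akirin2 (-0.40) and Ubqln2 (-0.38) had fallen, and Nfe2l1 did not pass (0.21, adjusted p = 0.098). Under IFN-beta at 8 h, 11 had risen and 3 had fallen, against 7.95% and 11.1% of all genes. Psme4 (0.98), Pomp (0.36) and Nfe2l1 (0.29, adjusted p = 0.0093) were among the risen. The Nfe2l1 call under IFN-beta was lost without 1 of its arrays, with an adjusted p of 0.142 at most.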

How the data were processed

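Per the submitters' processing notes, the array values were made with Affymetrix Expression Console 1.1. Summarisation, background correction and normalisation are not given in the sources used here. The deposited values were intensity on a linear scale, read from the values themselves (2.49 to 17782, array medians 25.6 to 29), and were taken to log2 without rescaling. Of 35556 probe sets, 21218 had 1 symbol, and for 1386 genes with several probe sets the brightest on average was used.

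Group means were fitted with limma 3.58.1 in R 4.3.3 (with data.table, version 1.17.8), using all 64 arrays together, which left 32 residual degrees of freedom. Summaries and plots were made with Python 3.11.15, pandas 2.3.3, numpy 2.4.6 and matplotlib 3.10.9. Promoters came from RefSeq. The pipeline was tested on simulated data.

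The 2 array sets were told apart on 12457 probe sets that have no gene, by the leading component of the differences between replicates (11.4% of variance). Replicate numbers were taken from the labels. They were checked over 496 pairs of groups for shared deviations. Of these, 46 correlated over 0.1, with a median of 0 and a range of -0.47 to 0.55. In all groups split by the array set but IFN-gamma 4 h, replicate 2 lay in the smaller set, so replicate number followed the set there. With the median at 0, replicate numbers were not treated as pairs. Correlation between replicate arrays, across genes, was 0.992 to 0.998.

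Members, gene lists and tests were chosen with earlier results of these data known. The rule for named genes took, per comparison, up to 6 called members with the largest rise and 6 with the largest fall, the catalytic subunits, the immunoproteasome and PA28 genes, and up to 4 called genes of each pathway list. Others were named after their values were seen. Alternatives were the array set as a covariate, its larger part alone, omission of the 5 arrays or of dim genes, a minimum change of 0.5, a fit of only the arrays compared, centring, quantile normalisation, trend and robust settings, the replicate number as a block, and omission of single arrays.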

Additional observations from a re-analysis of the deposited data

Results flagged for a closer look

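The change of 3 members under LPS at 5 ng/ml differed between the strains by a test of the difference of changes, BALB/c minus C57BL/6. From 2 to 8 h Psma3 differed by 0.668 ± 0.185 (adjusted p = 0.024). It was the 1 member called of 36, where 2.65% of all genes were higher and 2.87% lower. From 2 to 24 h Psmb6 differed by -0.506 ± 0.149 (adjusted p = 0.036), and by -0.34 with the array set as a covariate (adjusted p = 0.093). Psmd8 differed by 0.34 ± 0.099 over the same times (adjusted p = 0.033), where 2.83% of all genes were higher and 2.98% lower. Each of these limma calls was lost when 1 of its arrays was left out, with the highest adjusted p at 0.165 for Psma3, 0.207 for Psmb6 and 0.122 for Psmd8.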

How the results depend on the processing

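Of the single-gene values under alternatives, 8490 kept their side of the threshold, and those called in both fits also kept their direction. Beside them, 297 passed newly, 419 no longer passed and 4 reversed. Direction was not compared for values called in neither fit. The reversals came on the larger set alone, Psma6 -0.436 and Psmd6 -0.387 for IFN-beta at 24 h, and Psmc6 -0.412 and Psmd6 -0.41 for IFN-beta against IFN-gamma. IFN-beta 24 h replicate 2 lay in the smaller set, so these values rest on 1 array at that time. Psmd6, Psma6 and Psmc6 were higher in the smaller set (0.80, 0.60 and 0.53). The cause of the reversals was not tested.

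The number of members called changed under several alternatives. For IFN-beta 8 h, IFN-beta 24 h, IFN-gamma 24 h, C57BL/6 LPS 50, 5 and 0.5 ng/ml at 8 h and IFN-beta against IFN-gamma, they numbered 5, 1, 4, 7, 9, 13 and 6, with the set as a covariate 8, 4, 8, 16, 18, 21 and 15, and on the larger set alone 8, 8, 9, 16, 17, 22 and 16. On the larger set alone, BALB/c LPS had 13 members risen and 4 fallen at 4 h and 1 and 2 at 2 h. On that set LPS 50 against 0.5 ng/ml at 8 h had 2 higher and 6 lower, and BALB/c against C57BL/6 cells had 7 and 1 at 0 h. That set left 1 array in a group for IFN-gamma at 2 and 4 h and for the strains at 24 h of LPS. The member medians there were 0.006, 0.017 and -0.063. A minimum change of 0.5 gave 2 for IFN-beta 8 h, 2 for IFN-gamma 24 h, 9 and 14 for BALB/c LPS at 8 and 24 h, 4 and 9 at 50 ng/ml, 5 and 10 at 5 ng/ml, 7 and 16 at 0.5 ng/ml, 9 for IFN-gamma against LPS and 2 for IFN-beta against IFN-gamma. A fit of only the arrays compared, which has few degrees of freedom, gave 3 for both interferons at 8 h, 2 for IFN-gamma 24 h, 10 for BALB/c LPS 24 h, 11 at 50 ng/ml 8 h, 5 and 8 at 5 ng/ml, 4 for each interferon against LPS and 0 for IFN-beta against IFN-gamma. IFN-gamma 24 h gave 7 with centring or quantile normalisation. IFN-beta 24 h gave 2 with quantile normalisation or trend and robust settings, and 3 without the 5 arrays or without dim genes.

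Leaving out 1 array gave 2 to 4 for IFN-beta 8 h, 0 to 2 for IFN-beta 24 h, 3 to 5 for IFN-gamma 8 h, 1 to 2 for IFN-gamma 24 h, 11 to 13 and 14 to 27 for BALB/c LPS at 8 and 24 h, 7 to 8 and 14 to 16 at 50 ng/ml, 7 to 10 and 14 to 19 at 5 ng/ml, 8 to 10 and 14 to 26 at 0.5 ng/ml, 15 to 27 for IFN-beta and 10 to 18 for IFN-gamma against LPS, and 2 to 6 for IFN-beta against IFN-gamma.

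With the replicate number as a block, the count for IFN-beta 24 h was 2 against 1 without it, and no other count moved by over 1.5 times. The wells were not treated as pairs by replicate number, though it followed the array set in most split groups. The number of arrays, 2 per group, limits what small differences can be detected.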
